A study of Homo sapiens with 30 samples.

Results

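The septins SEPT2 to SEPT11 were followed across all 14 groups of a set of human prostate cancer cell line RNA-seq libraries. Gene rows were taken by septin name, which in both C4-2 tables a spreadsheet program had turned into dates (2-Sep for SEPT2, 3-Sep for SEPT3, and so on to 10-Sep and 11-Sep). The VCaP and LNCaP tables kept the SEPT symbols. The selenoprotein listed as 15-Sep was left out. All 10 septins were found in each of the 4 tables, among 57773 gene rows per table. VCaP cells had been transfected with siRNA to RB1 or with a non-targeting control siRNA (20 nM, 2 days, 3 libraries each). Their medium is given as DMEM with 10% FBS in the labels, whereas the names of their count columns carry CSS, the abbreviation used for charcoal-stripped serum, so the serum of the VCaP cells is uncertain. C4-2-tet-shRB cells, in which doxycycline switches on a short hairpin RNA that targets RB1, were used in 2 experiments. In the first, cells in RPMI with 5% charcoal-stripped serum received 10 µM GSK2879552, which blocks the histone demethylase LSD1, or DMSO for 24 hours, after 3 days of doxycycline (0.05 µg/ml) or without it (2 libraries per group). In the second, cells in 8% charcoal-stripped and 2% regular serum received 10 nM dihydrotestosterone (DHT) for 24 hours or vehicle, after 0, 3 or 30 days of doxycycline (1 library per group). LNCaP cells, in 5% charcoal-stripped serum, received 1 µM GSK2879552 or vehicle for 2 days (1 library per group). The GSK2879552 libraries of C4-2 cells and the VCaP libraries were made with an mRNA kit, and the DHT and LNCaP libraries with a total RNA kit.

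Septins are GTP-binding proteins that assemble end to end into rods and filaments at the plasma membrane, on actin bundles and at the cleavage furrow of dividing cells. Each rod takes its subunits from different subgroups of the family, and members of the same subgroup can replace each other in the same position. SEPT2, SEPT4 and SEPT5 form 1 subgroup, SEPT3 and SEPT9 another, and SEPT6, SEPT8, SEPT10 and SEPT11 another, while SEPT7 stands alone and is the partner that most rods require. SEPT3 and SEPT5 are best known from neurons, whereas SEPT2, SEPT7, SEPT9 and SEPT11 are found in most tissues.

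Septin promoters were searched for E2F sites because RB1 acts through E2F factors, which bind DNA near gene starts. Those of SEPT11, SEPT10 and SEPT2 are shown. Promoter windows (250 bases before to 50 bases after an annotated start, RefSeq, GRCh38.p14) were found for 8 of the 10 septins, 25 windows in all. The 8 were all but SEPT3 and SEPT5, so SEPT3, the septin called with RB1 siRNA, could not be searched. The first pair of sequences below are those of SEPT11 (chr4:76949502-76949801, plus strand) and SEPT10 (chr2:109613917-109614216, minus strand), with GC boxes (GGGCGG on either strand) in capitals. The other is the first window of SEPT2 (chr2:241315105-241315404, plus strand), where capitals mark an E2F site.
SEPT11: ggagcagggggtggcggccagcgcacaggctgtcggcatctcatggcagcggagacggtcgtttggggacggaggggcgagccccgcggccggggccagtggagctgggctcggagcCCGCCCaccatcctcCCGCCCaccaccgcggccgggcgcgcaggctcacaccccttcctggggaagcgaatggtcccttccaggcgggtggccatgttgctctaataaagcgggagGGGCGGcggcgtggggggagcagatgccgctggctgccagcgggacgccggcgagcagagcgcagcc
SEPT10: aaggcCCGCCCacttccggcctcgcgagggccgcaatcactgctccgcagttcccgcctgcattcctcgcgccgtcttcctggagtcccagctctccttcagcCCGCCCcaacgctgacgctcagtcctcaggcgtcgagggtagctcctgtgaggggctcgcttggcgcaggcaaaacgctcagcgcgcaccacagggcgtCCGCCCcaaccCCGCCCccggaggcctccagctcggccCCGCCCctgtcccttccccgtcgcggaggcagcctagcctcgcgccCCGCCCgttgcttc
SEPT2 first window: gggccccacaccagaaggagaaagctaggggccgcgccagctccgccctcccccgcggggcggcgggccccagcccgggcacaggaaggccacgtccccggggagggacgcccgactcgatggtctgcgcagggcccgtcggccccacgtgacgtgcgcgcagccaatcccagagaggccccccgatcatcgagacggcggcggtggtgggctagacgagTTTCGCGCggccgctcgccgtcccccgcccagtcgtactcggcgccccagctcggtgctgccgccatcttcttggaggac
An E2F site (TTTGGCGC, TTTCGCGC, TTTCCCGC or TTTGCCGC), searched on both strands, was in 1 septin window, the first of SEPT2, and in 3.31% of all 35116 windows of this length. SEPT2 had no edgeR call in any RB1 siRNA or doxycycline comparison. GC boxes were in 16 of the 25 windows and in 45.0% of all windows. These are matches of letters in short windows, and occupancy was not measured here.

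RB1 served as the check of the labels. It stood at 5.35, 6.74 and 7.41 CPM (read counts scaled to library size) in the RB1 siRNA libraries of VCaP cells, against 56.5, 60.0 and 63.9 CPM in the control siRNA libraries. In the GSK2879552 experiment it was at 4.64 to 6.74 CPM with doxycycline and 22.1 to 32.7 CPM without. In the DHT experiment it was 48.1 and 51.1 CPM at 0 days, 7.82 and 10.0 CPM at 3 days, and 6.25 and 6.27 CPM at 30 days. Counted reads were 4311455 to 7107036 per library in VCaP cells, 14515932 to 22326960 and 14898454 to 16856486 in the GSK2879552 and DHT experiments, and 13085157 to 14036346 in LNCaP cells. The 2 columns per group of the DHT and LNCaP tables were lanes of 1 library and differed by no more than counting error (chi-square ratio 0.983 to 1.01). The 3 VCaP replicates differed by little more (1.14 and 1.24), and those of the GSK2879552 table by 1.61 to 7.88. The labels do not say that replicates were separate cultures, so the p-values of the VCaP and GSK2879552 tables reflect library-to-library spread, which may be technical. The DHT table has 1 library per group. Its p-values rest on departures from an additive model of doxycycline time and DHT, with 2 residual degrees of freedom, and not on replicates. A control hairpin given doxycycline was not part of any table, so RB1 loss, doxycycline and hairpin induction cannot be told apart in C4-2 cells, nor can RB1 loss and other effects of the siRNA in VCaP cells. KLK3 and HOXB13, markers of prostate luminal cells, were expressed in every library. ERG, which marks VCaP, reached 274 to 328 CPM there and at most 0.218 CPM elsewhere, and the leukocyte gene PTPRC at most 0.782 CPM in any library. Markers of other cell types were not all near 0. The fibroblast gene COL1A1 reached 50.8 CPM in the GSK2879552 experiment and 35.2 CPM in LNCaP cells. In VCaP cells the fibroblast gene LUM reached 9.06 CPM and the basal gene KRT14 7.73 CPM. COL1A2 and DCN (fibroblast) and TP63 (basal) reached at most 0.966, 0.229 and 0.465 CPM.

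Per kilobase of exon, SEPT2 had the highest level in the control libraries of VCaP and LNCaP cells and shared the top with SEPT11 in C4-2 cells with DMSO, while SEPT4 was lowest in all of them. In VCaP cells with control siRNA, SEPT2 averaged 52.6 ± 0.60 CPM per kb and SEPT9 31.6 ± 0.85 (SD, n = 3). SEPT5 followed at 14.5 ± 0.77, SEPT11 at 12.4 ± 0.44, SEPT3 at 8.35 ± 0.61 and SEPT8 at 7.94 ± 0.33 CPM per kb. SEPT7 averaged 5.75 ± 0.045, SEPT10 4.61 ± 0.21, SEPT6 1.79 ± 0.205 and SEPT4 0.141 ± 0.045 CPM per kb. The ranges of neighbours in that order did not overlap, except those of SEPT3 and SEPT8. In C4-2 cells with DMSO, SEPT2 (33.9 and 34.6 CPM per kb) and SEPT11 (33.1 and 34.8) overlapped at the top. SEPT5 (21.0 and 21.6 CPM per kb) and SEPT9 (18.7 and 20.5) came next. SEPT8 was at 10.0 and 10.7 CPM per kb, SEPT3 at 7.99 and 8.42, SEPT10 at 3.78 and 4.14, and SEPT4 at 0.301 and 0.310. SEPT6 (6.18 and 6.89 CPM per kb) and SEPT7 (6.16 and 6.46) overlapped. The LNCaP vehicle library had SEPT2 at 27.6, SEPT9 at 24.7 and SEPT11 at 23.1 CPM per kb, and SEPT7 at 1.78.

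Levels set across tables also carry the kit, medium and line. C4-2 cells without doxycycline and given vehicle, in the total RNA libraries of the DHT experiment, had SEPT3 at 2.68 and SEPT5 at 8.13 CPM per kb, against 7.99 to 8.42 and 21.0 to 21.6 in the mRNA libraries with DMSO of the same line. SEPT2, at 38.5 against 33.9 to 34.6 CPM per kb, and SEPT11, at 31.3 against 33.1 to 34.8, were closer between those experiments. The parts of the kit and of the medium in these differences cannot be told apart. Reads of SEPT5, a gene next to the platelet gene GP1BB, are uncertain, because 4364 of its exonic bases are shared on the same strand with GP1BB and a readthrough gene in GENCODE v29, and GP1BB itself had 0 counts in every table. SEPT7 is uncertain as well. Its 8 listed pseudogenes together held counts equal to 39.5% of those of SEPT7 in VCaP, 22% and 15.6% in the C4-2 tables with GSK2879552 and DHT, and 30.6% in LNCaP cells. SEPT1 reached at most 3.53 CPM in any library, and SEPT12 and SEPT14 at most 0.232 CPM.

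**Figure D1:**
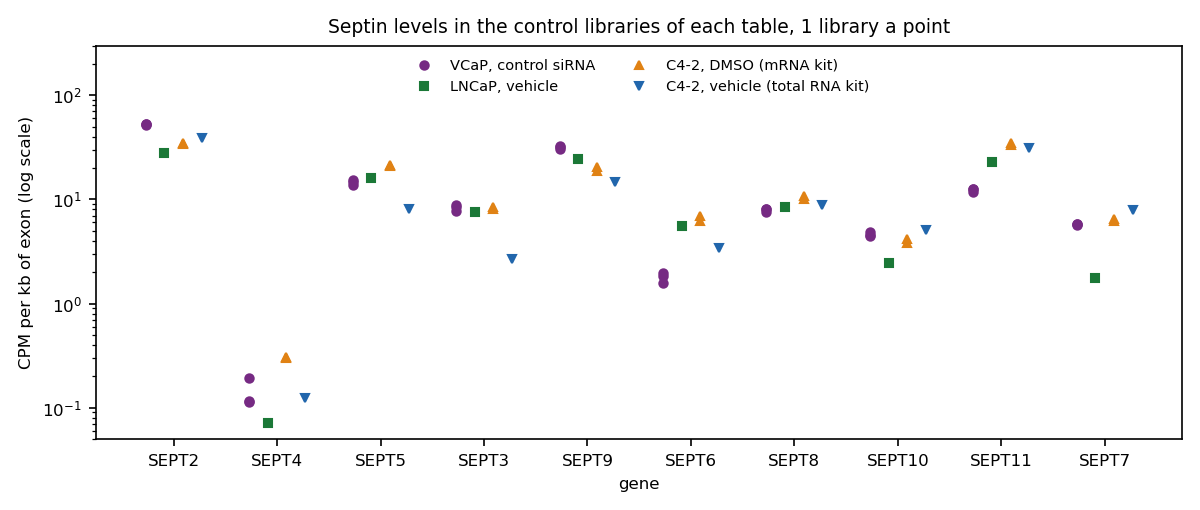
Level of each septin in CPM per kb of exon (log scale) in the control libraries of the 4 tables, 1 library a point. SEPT2 is highest in VCaP and LNCaP cells and level with SEPT11 in C4-2 cells with DMSO, SEPT4 is lowest throughout, and SEPT3 and SEPT5 differ most between the 2 C4-2 experiments.

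DHT changed the make-up of the septin pool in C4-2 cells: SEPT11 fell, and SEPT2 rose with TMM scaling. SEPT11, a filament subunit of the SEPT6 subgroup, had 132, 171 and 190.4 CPM with DHT after 0, 3 and 30 days of doxycycline, against 307, 309 and 337 CPM with vehicle. All 3 DHT libraries lay below all 3 vehicle libraries. The fall was 0.96 ± 0.06 on the log2 scale (edgeR adjusted p = 4.93e-13, doxycycline levels averaged), and 5.15% of the tested genes fell as far. In bulk RNA, fewer cells that express a gene and less RNA per cell cannot be told apart. Of the 10 septins 1 rose and 4 fell, where 47.1% of all 17300 tested genes were called (24.3% higher, 22.8% lower). A share of 5 in 10 is thus near that of all genes. The median of the septins was -0.18 and that of all genes -0.02.

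SEPT2, which associates with actin bundles and was among the most abundant septins, had 373, 339 and 329.8 CPM with DHT at 0, 3 and 30 days, against 284, 289 and 290.5 CPM with vehicle. The groups did not overlap, and the rise was 0.27 ± 0.05 (edgeR adjusted p = 1.78e-04). This call depends on the scaling. TMM and total-count scaling differ by 0.16 to 0.21 on the log2 scale between DHT and vehicle libraries, and with total counts the value was 0.08 (edgeR adjusted p = 0.172). SEPT11 fell under either (-1.15 with total counts), as did SEPT5, SEPT6 and SEPT9, while SEPT3, SEPT7 and SEPT8 were then also called lower. SEPT10, at 0.07 ± 0.08 with no call, turned to -0.12 with total counts, again with no call (adjusted p = 0.219).

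SEPT6, a further subunit of the SEPT11 subgroup, had 16.6, 14.1 and 16.0 CPM with DHT at 0, 3 and 30 days, against 21.2, 19.7 and 18.6 CPM with vehicle, and fell by 0.35 ± 0.09 (edgeR adjusted p = 0.00214). SEPT9, the actin- and microtubule-binding septin often altered in carcinomas, had 165, 169 and 167 CPM with DHT, against 188, 192 and 208 CPM with vehicle (log2 -0.23 ± 0.05, edgeR adjusted p = 8.39e-04). In both genes every DHT library lay below every vehicle library. SEPT5 had 31.7, 31.8 and 32.5 CPM with DHT, against 37.4, 33.3 and 38.5 CPM with vehicle (log2 -0.18 ± 0.07, edgeR adjusted p = 0.0336). Its groups did not overlap either, but its call was lost in DESeq2 (adjusted p = 0.293), with no filter on low counts (adjusted p = 0.0685), without the first lane (adjusted p = 0.208) and without any of the 4 libraries at 0 and 30 days (adjusted p 0.0907 to 0.221). That of SEPT6 was lost in DESeq2 (adjusted p = 0.0856) and without the 3-day vehicle library (adjusted p = 0.0501). The other 5 septins had no call, with values of -0.40 ± 0.34 for SEPT4, -0.18 ± 0.09 for SEPT3, -0.07 ± 0.06 for SEPT8 and -0.01 ± 0.06 for SEPT7 beside SEPT10.

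Shares of the subgroups within a library do not depend on the scaling, but they are parts of a fixed whole. A fall of SEPT11 alone would raise the shares of the other subgroups. The shares therefore cannot show whether SEPT2 itself rose, and describe the make-up of the pool only. The SEPT2 subgroup held 52.3%, 47.7% and 45.9% of the summed septin CPM per kb with DHT at 0, 3 and 30 days, against 38.7%, 38.4% and 37.3% with vehicle. The SEPT6 subgroup held 26.7%, 31.0% and 32.8% with DHT, against 40.3%, 40.5% and 41.0% with vehicle. Neither pair of groups overlapped. SEPT7 held 7.41%, 7.51% and 7.19% with DHT, against 6.61%, 6.92% and 6.57% with vehicle. Its share was thus higher with DHT, although its level with TMM scaling had no call (log2 -0.01 ± 0.06). In the GSK2879552 experiment the SEPT2 and SEPT6 subgroups held 36.3% to 40.3% and 37.0% to 39.0% in all 8 libraries.

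**Figure D2:**
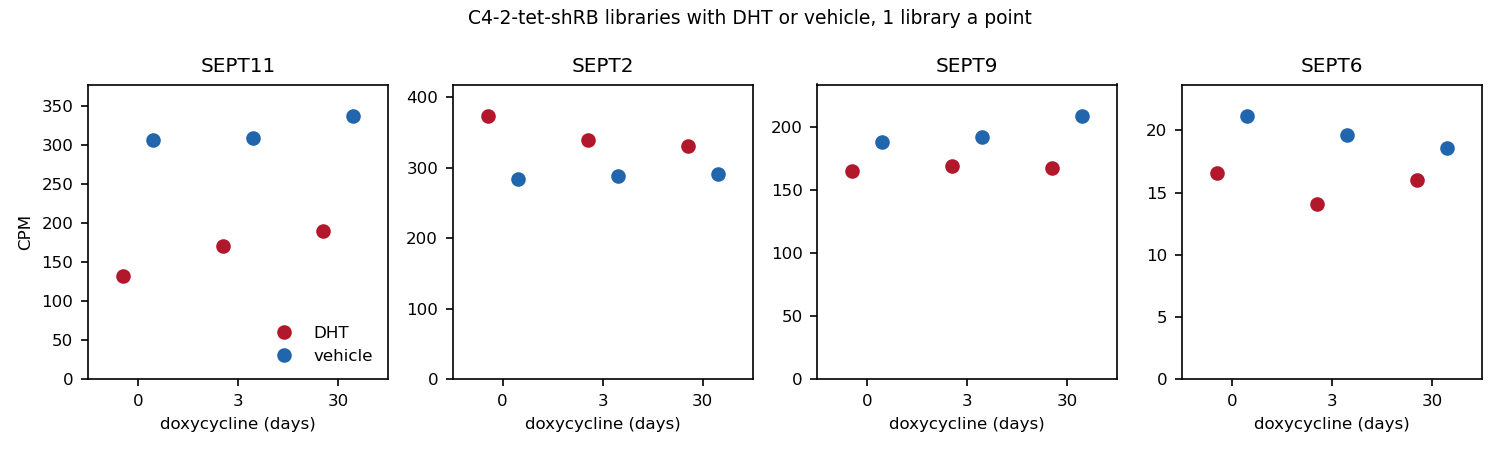
CPM of SEPT11, SEPT2, SEPT9 and SEPT6 against days of doxycycline in C4-2-tet-shRB cells with DHT (red) or vehicle (blue), 1 library a point. SEPT11 lies between 132 and 190.4 CPM with DHT and between 307 and 337 CPM with vehicle, and SEPT2 lies higher with DHT at each time.

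SEPT11 lies on chromosome 4 (76949703 to 77040384, plus strand, GRCh38, GENCODE v29), SEPT2 and SEPT10 on chromosome 2 (241315100 to 241354027, plus strand, and 109542982 to 109614206, minus strand) and SEPT3 on chromosome 22 (41969475 to 41998221, plus strand). All are protein-coding genes. The DHT response of SEPT11 was set out at each doxycycline level from 1 library against 1, which allows no test across replicates. The ratio of DHT to vehicle was 0.432 (95% interval 0.409 to 0.456) at 0 days, 0.552 (0.526 to 0.579) at 3 days and 0.564 (0.539 to 0.590) at 30 days. These Clopper-Pearson intervals cover counting error only. SEPT11 was the 1 septin with at least 100 counts that passed a 2-fold difference, and it did so at 0 days, where 3.83% of the genes were lower past this limit. At 3 and 30 days 1.81% and 1.83% of genes were, and 0 septins. The interval at 0 days did not overlap those at 3 and 30 days, which overlapped each other. The averaged tests of the DHT table assume the same DHT response at each time, so their p-values for SEPT11 carry that limit. SEPT2 moved the opposite way, with ratios of 1.31 (1.26 to 1.37) at 0 days, 1.17 (1.13 to 1.22) at 3 days and 1.14 (1.09 to 1.18) at 30 days.

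SEPT11 was also called higher after 30 days of doxycycline than without it, by 0.32 ± 0.08 (edgeR adjusted p = 0.0155), the 1 call among 10 septins where 4.03% of genes were called. The size differed with the treatment, though with 1 library a group this was not tested. With DHT the ratio of 30 days to 0 days was 1.44 (1.35 to 1.53), and with vehicle it was 1.10 (1.06 to 1.14). The call was lost without the DHT library at 0 days (log2 0.14, adjusted p = 0.334), without the DHT library at 30 days (log2 0.22, adjusted p = 0.407) and in DESeq2 (adjusted p = 0.0623). After 3 days none of the 10 septins was called by edgeR, where 0.468% of genes were, and SEPT11 was the 1 septin at an unadjusted p under 0.05 (log2 0.18 ± 0.08, adjusted p = 0.434). DESeq2 called none of the 10 septins after 3 days either. Without the vehicle library at 0 days the SEPT11 value was 0.38, where the 0-day level rests on the DHT library alone. With DHT the ratio of 3 days to 0 days was 1.29 (1.21 to 1.37), and with vehicle it was 1.01 (0.970 to 1.05).

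SEPT3 was the septin called higher both with RB1 siRNA in VCaP cells and with doxycycline in the mRNA libraries of C4-2 cells. In VCaP cells it stood at 73.3, 70.0 and 69.7 CPM with RB1 siRNA, against 63.4, 54.8 and 61.0 CPM with control siRNA. Every RB1 siRNA library lay above every control library, and the rise was 0.25 ± 0.07 (edgeR adjusted p = 0.0128). It was the 1 call among 9 septins tested, where 5.62% of 14066 genes were called. The others lay between -0.19 and 0.17, and SEPT9 was also called without RB1 siRNA replicate 3 (0.13, adjusted p = 0.0122). SEPT4, at 0.844 to 1.55 CPM, was too low to be tested. The call did not hold in DESeq2 (adjusted p = 0.163), without control replicate 2 (log2 0.19, adjusted p = 0.172) or without RB1 siRNA replicate 1 (log2 0.23, adjusted p = 0.0572).

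In C4-2 cells with DMSO, SEPT3 had 82.1 and 82.2 CPM with doxycycline, against 60.2 and 57.2 CPM without. With GSK2879552 it had 86.6 and 85.1 CPM with doxycycline, against 60.4 and 60.9 CPM without. The groups were apart in both settings, by 0.48 ± 0.07 with DMSO (edgeR adjusted p = 5.98e-04) and 0.50 ± 0.07 with GSK2879552 (edgeR adjusted p = 3.43e-04). The difference of these effects was 0.02 ± 0.10, with no call (edgeR adjusted p = 0.995). In that difference 0 of 10 septins were called by edgeR or DESeq2 and 0 had an unadjusted p under 0.05, where 0.0163% of genes were called. SEPT3 was the 1 called septin of 10 in each, where 7.84% and 7.72% of genes were called. The call held without each library in turn (0.44 to 0.52 with DMSO and 0.48 to 0.51 with GSK2879552). The other 9 septins lay between -0.05 and 0.14 with DMSO, and between -0.10 and 0.26 with GSK2879552. Without the first library given GSK2879552 alone, SEPT11 was also called in the cells given GSK2879552 (0.23, adjusted p = 0.00818), and without the second, SEPT9 was (0.24, adjusted p = 0.00904).

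In the total RNA libraries of the DHT experiment the same 3-day doxycycline treatment gave no call for SEPT3. It had 14.6, 15.6 and 20.9 CPM with DHT at 0, 3 and 30 days of doxycycline, and 19.2, 16.2 and 22.6 CPM with vehicle. Libraries at 3 days lay within the range of those at 0 days, and with vehicle the 3-day library was the lowest. The 3-day value was -0.10 ± 0.11 (edgeR adjusted p = 0.851) and the 30-day value 0.36 ± 0.11 (edgeR adjusted p = 0.0561). From 3 to 30 days the difference was 0.46 ± 0.11 (edgeR adjusted p = 0.0634), where 0.324% of genes were called. That comparison had 0 septins called by edgeR or DESeq2, and SEPT3 was the 1 with an unadjusted p under 0.05. Without the vehicle library at 0 days the 30-day value was 0.53, where the 0-day level rests on the DHT library alone. The ratio of 30 days to 0 days was 1.43 with DHT (95% counting interval 1.19 to 1.72) and 1.18 with vehicle (1.01 to 1.38). Without either 3-day library the 30-day value was 0.37 and 0.36. It passed the threshold with no filter on low counts (0.37, edgeR adjusted p = 0.0440). The difference from 3 to 30 days passed it without either library at 0 days (0.46 and 0.45), without the first lane (0.58) and with no filter on low counts (0.45, adjusted p = 0.0252).

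A joint fit of both C4-2 tables gave a 3-day doxycycline effect on SEPT3 that was larger by 0.59 ± 0.13 in the GSK2879552 experiment than in the DHT experiment (edgeR adjusted p = 0.0200). It was the 1 call among 10 septins, where 1.04% of 19898 genes were called. The difference stayed positive, at 0.42 to 0.72, without each of the 14 libraries, and its call was lost without 7 of them (adjusted p 0.0585 to 0.317). These were the 4 DMSO libraries, both vehicle libraries at 0 and 3 days, and the 3-day DHT library. The effect in the DHT experiment averaged vehicle and DHT, whereas that in the GSK2879552 experiment was taken with DMSO alone. The experiments also differ in kit, medium and SEPT3 level, and none of these can be told apart.

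**Figure D3:**
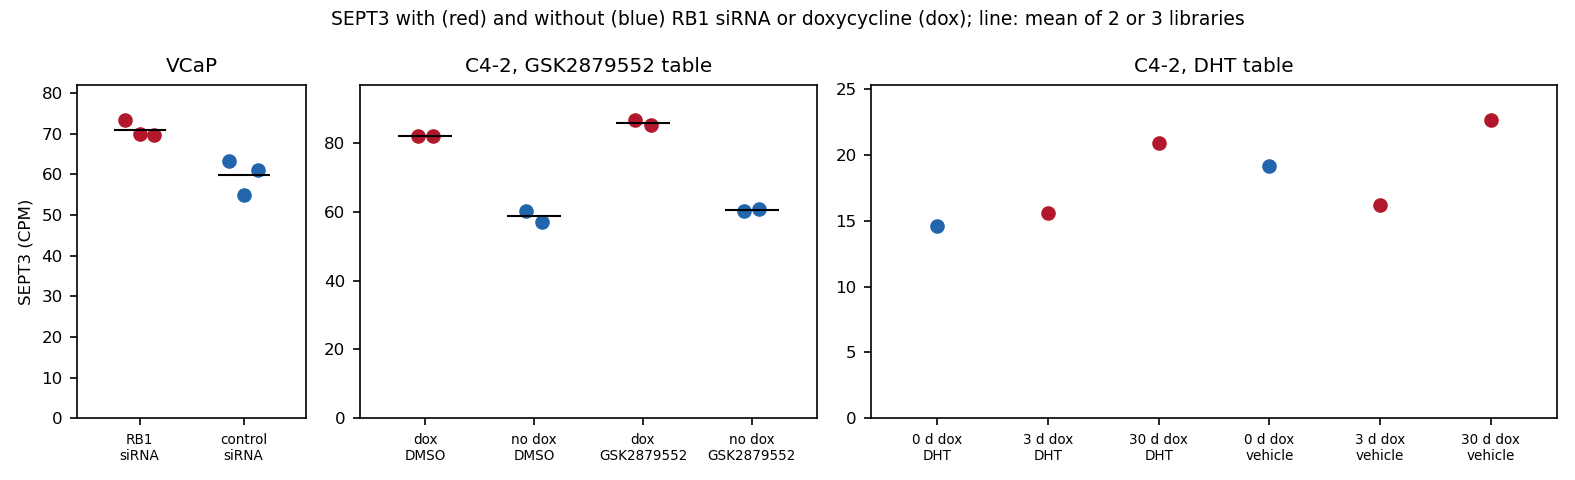
SEPT3 in CPM in each library of the VCaP table, the C4-2 table with GSK2879552 and the C4-2 table with DHT, with RB1 siRNA or doxycycline in red, without in blue, and lines at means. Red points lie above blue ones in the first 2 panels, and the panel of the DHT experiment has a lower scale, with its 3-day libraries between those at 0 days.

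SEPT3 is a neuronal septin, so markers of neuronal or neuroendocrine cells are given beside it. In VCaP cells all 6 were tested, and with RB1 siRNA 2 of the 6 were called, beside 5.62% of all genes. SYP rose (0.20 ± 0.06) and NCAM1 fell (-0.92 ± 0.17). In the GSK2879552 experiment 3 of the 6 were high enough to test, and with doxycycline and DMSO 1 of these 3 was called, beside 7.84% of all genes. This was ENO2, which fell (-0.30 ± 0.06). With doxycycline and GSK2879552 0 of these 3 were called, beside 7.72% of all genes. ENO2 was then at 0.05 ± 0.06 (edgeR adjusted p = 0.723). There CHGA was at most 0.414 CPM and INSM1 at 0. Among 10643 genes, the likeness of patterns over the 14 C4-2 libraries, centred within each table, was highest for POLR2D (Pearson r = 0.908), CEP85 (0.904) and SPATA33 (0.903) with SEPT3. SEPT6 was next by adjusted p in the doxycycline comparison with DMSO, but with no call (0.14 ± 0.09, edgeR adjusted p = 0.369). Its likeness was highest with PRNP (0.923), NOB1 (0.910) and MYC (0.903). These values share libraries and treatments and are descriptions.

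SEPT10 rose with GSK2879552 in C4-2 cells, with and without doxycycline. SEPT10, a less studied subunit of the SEPT6 subgroup, had 26.7 and 23.6 CPM with GSK2879552, against 17.1 and 15.6 CPM with DMSO, in cells without doxycycline. With doxycycline it had 24.1 and 27.7 CPM with GSK2879552, against 15.1 and 16.9 CPM with DMSO. All 4 libraries given the inhibitor lay above all 4 given DMSO. The rise was 0.63 ± 0.12 without doxycycline (edgeR adjusted p = 0.0127) and 0.69 ± 0.11 with it (edgeR adjusted p = 0.00244), and the difference of the rises was 0.06 ± 0.16 (edgeR adjusted p = 0.995). It was the 1 septin called of 10 in each, where 0.678% and 1.34% of 18423 genes were called, and 3.62% and 2.83% of genes lay as far up. The first call was lost without DMSO replicate 1 or 2 (adjusted p = 0.127 and 0.201), and the second without the doxycycline and DMSO replicate 1 (adjusted p = 0.106) or the doxycycline and GSK2879552 replicate 2 (adjusted p = 0.0861).

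Among the other septins SEPT2 stood at 0.19 ± 0.07 and SEPT8 at -0.17 ± 0.07 without doxycycline, both at an unadjusted p under 0.05 and with no call (adjusted p = 0.311 and 0.366). The replicates given GSK2879552 alone were the least alike of any group, with a chi-square ratio of 7.88. Without the second of them SEPT2 (0.28, adjusted p = 0.00235) and SEPT9 (-0.24, adjusted p = 0.0133) were also called. The remaining 8 values with doxycycline, SEPT2 included and SEPT4 set aside at -0.29 ± 0.22, lay between -0.08 and 0.13.

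In LNCaP cells, with 1 library against 1, a lower dose and a longer time, SEPT10 had 14 CPM with GSK2879552, against 10.2 CPM with vehicle, a ratio of 1.37 (95% counting interval 1.10 to 1.72). SEPT7 was also above 1 at 1.28 (1.08 to 1.5), as was SEPT11 at 1.15 (1.09 to 1.21). SEPT9 was below 1 at 0.792 (0.757 to 0.828), with 251 CPM against 317 CPM, and so were SEPT5 at 0.816 (0.742 to 0.896) and SEPT3 at 0.815 (0.730 to 0.910). For SEPT2, SEPT6 and SEPT8 the interval held 1. Of the 9 septins with at least 100 counts none passed a 2-fold difference, where 2.96% of genes did. There is no replicate check on these ratios.

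**Figure D4:**
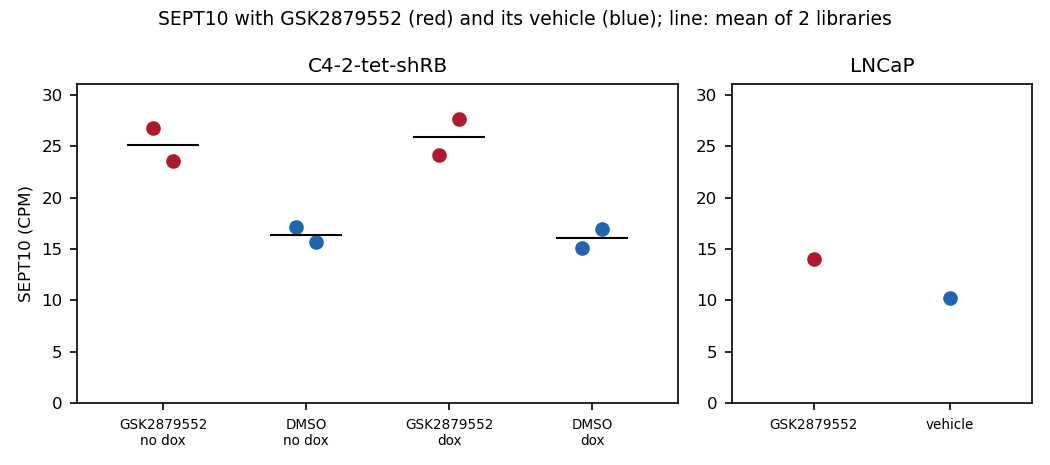
SEPT10 in CPM with GSK2879552 (red) or its vehicle (blue) in C4-2-tet-shRB cells without and with doxycycline and in LNCaP cells, 1 library a point and lines at means of 2 libraries. In C4-2 cells the inhibitor libraries lie between 23.6 and 27.7 CPM and the DMSO libraries between 15.1 and 17.1 CPM.

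**Figure D5:**
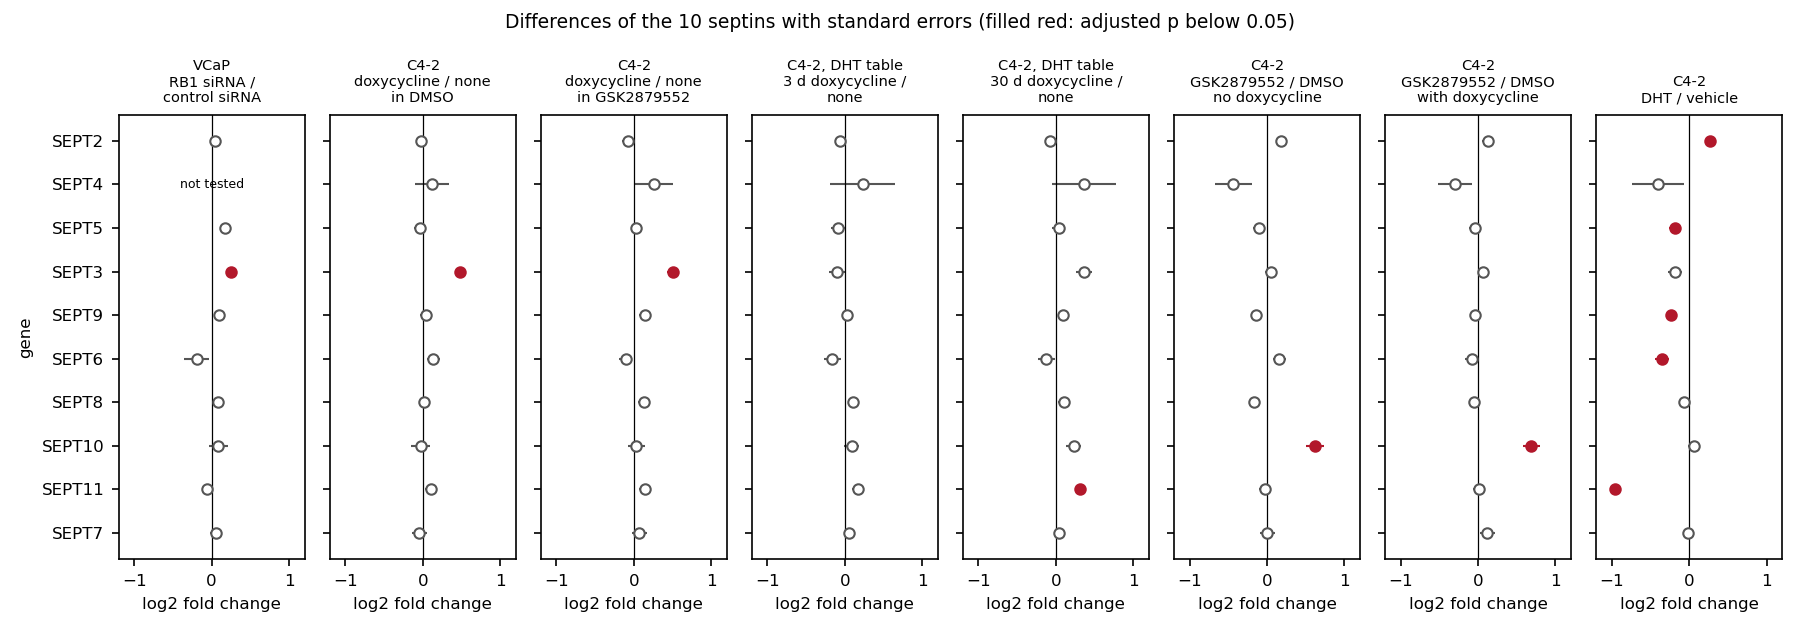
Log2 fold change with its standard error of each septin in 8 comparisons, filled red where the edgeR adjusted p was below 0.05. SEPT3 is red in the VCaP and both GSK2879552-table doxycycline panels, SEPT10 in both inhibitor panels, SEPT11 at 30 days of doxycycline, and 5 septins in the DHT panel.

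The proteins that work with septins were followed in 2 lists, septin partners and cytokinesis genes. Of 10 partners 9 were tested, and with DHT 5 rose and 3 fell (median 0.25), beside 47.1% of all genes called. CDC42EP3, a Borg protein that recruits septins to actin, rose by 1.70 ± 0.06, and ARHGEF18, an exchange factor that septins bind, rose by 0.70 ± 0.07. CDC42EP1, another Borg protein, fell by 1.04 ± 0.07, and ANLN, the furrow scaffold anillin, fell by 0.52 ± 0.07. Of 19 cytokinesis genes 7 rose and 10 fell with DHT (median -0.50), beside 24.3% of all genes called higher and 22.8% lower. The myosin light chain MYL12A rose by 1.10 ± 0.06 and actin ACTB by 0.66 ± 0.05, whereas the kinase AURKB fell by 0.96 ± 0.08 and the spindle protein PRC1 fell by 0.71 ± 0.07. The other genes called higher were MYH9, MYH10, MYL9, MYL12B and DIAPH1, of actin and myosin, and those called lower were ECT2, RACGAP1, KIF23, CIT, DIAPH3, PLK1, CEP55 and KIF20A. The value of MYH10 (0.16 ± 0.06) was no larger than the shift between scalings.

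With doxycycline and DMSO, where 7.84% of all genes were called, 1 of 9 partners and 4 of 19 cytokinesis genes were. The partner ARHGEF18 fell (-0.71 ± 0.08). Of the cytokinesis genes 2 rose (AURKB 0.42 ± 0.09 and KIF20A 0.42 ± 0.09) and 2 fell (MYL9 -1.28 ± 0.25 and MYH9 -0.23 ± 0.07). With doxycycline and GSK2879552, where 7.72% of all genes were called, 2 of 9 partners and 2 of 19 cytokinesis genes were. CDC42EP3 rose (0.58 ± 0.14) and ARHGEF18 fell (-0.51 ± 0.09), while AURKB (0.42 ± 0.09) and CIT (0.29 ± 0.08) rose. In VCaP cells with RB1 siRNA, where 5.62% of all genes were called, 0 of 9 partners and 3 of 18 cytokinesis genes were. MYH9 rose (0.12 ± 0.03), and KIF20A (-0.45 ± 0.06) and PLK1 (-0.31 ± 0.09) fell. Neither list had a call with GSK2879552 in either setting, or after 3 or 30 days of doxycycline in the DHT experiment. ARHGEF18 differed between the C4-2 experiments in its 3-day doxycycline effect, by -0.70 ± 0.12 (edgeR adjusted p = 0.00137).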

How the data were processed

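RNA-seq was measured in 22 libraries, given as 30 columns in 4 tables of raw counts that the authors deposited. Reads were checked with FastQC 0.11.9, aligned with STAR 2.7.2 and counted with featureCounts 1.6.4 on hg19 (GRCh37), per the submitters' processing notes. The annotation release, strand setting and treatment of multiply mapping reads are not given in the sources used here. Lanes of the same library (their chi-square ratio was below 1.5, taking genes with 10 or more counts) were summed. Each table was fitted on its own with edgeR 4.0.16 in R 4.3.3 (TMM scaling, filterByExpr, quasi-likelihood test), with Benjamini-Hochberg adjustment over all genes and calls at an adjusted p under 0.05. The DHT table, with 1 library per group, took an additive model of doxycycline time and DHT with 2 residual degrees of freedom, which assumes the same DHT response at each time. A joint fit of the 14 C4-2 libraries tested the difference between experiments. CPM used TMM-scaled library sizes, per kb of GENCODE v29 exon union length, which 90.6% of gene rows had. Comparisons of 1 library with 1 are TMM-scaled ratios with 95% Clopper-Pearson intervals, for genes with at least 100 counts. The fits were tested on simulated data with 200 changed genes. Alternatives were DESeq2 1.42.0, RLE scaling, no filter on low counts, a replicate block and leaving out each library. Total-count scaling of the DHT table, the joint fit without each library and a fit of 4 libraries were added after the data were seen. The septins, the gene lists and the rule for named genes (all 10 septins, and up to 2 called list members per direction with the smallest p) were chosen with earlier results of these data known. Genes named beyond that rule were chosen after their values were seen. Sequences are from RefSeq, and no coordinates were converted between builds. Some results of the marker lists and the promoter search are not reported here.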

Additional observations from a re-analysis of the deposited data

Results flagged for a closer look

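The 3-day doxycycline effect on SEPT3 differed between the C4-2 experiments. It was larger by 0.59 (log2) in the mRNA libraries of the GSK2879552 experiment than in the total RNA libraries of the DHT experiment. This was a test of the difference itself (edgeR adjusted p = 0.0200). The difference was 0.42 to 0.72 without each library in turn, and its call was lost without several of them. The DHT experiment had 1 library per group, so the p-value rests in part on an additive model. SEPT3 was higher in 2 of 2 doxycycline libraries than in both without it in the DMSO cells of the first experiment. In the second, 1 library was set against 1. With DHT the ratio of 3 days to 0 days was 1.06 (15.6 against 14.6 CPM), and its 95% counting interval, 0.873 to 1.29, held 1. With vehicle the ratio was 0.845 (16.2 against 19.2 CPM, interval 0.717 to 0.996). The effect in the second experiment averaged vehicle and DHT. The parts of kit, medium, DHT and SEPT3 level in the difference between experiments were not tested.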

How the results depend on the processing

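SEPT3 with doxycycline in the GSK2879552 experiment, SEPT10 with GSK2879552 and SEPT11, SEPT2 and SEPT9 with DHT kept direction and call in DESeq2, with RLE scaling and with no filter on low counts; SEPT2 lost its call with total counts. In DESeq2, 298 genes were called in VCaP (0 septins), 31 at 3 days, 160 at 30 days (0 septins), 19 for 30 against 3 days and 5084 with DHT (3 septins). With no filter the counts were 330 and 406 for GSK2879552 without and with doxycycline, 39 for the difference of effects, 222 at 3 days, and 108 for 30 against 3 days (1 septin), with 2 septins at 30 days. Total-count scaling gave 37 genes at 3 days, and a fit of the 4 libraries without GSK2879552 gave 3540 for doxycycline with DMSO. Leaving out each library or lane gave 515 to 826 genes in VCaP (septins 0 to 2), 279 to 3200 for doxycycline with DMSO, 316 to 3201 with GSK2879552 (septins 1 to 2), 41 to 1735 for GSK2879552 without doxycycline (septins 0 to 3), 78 to 947 with it (septins 0 to 1) and 0 to 195 for the difference of effects. It gave 19 to 1002 at 3 days (septins 0 to 1), 207 to 1965 at 30 days (septins 0 to 2), 35 to 352 for 30 against 3 days (septins 0 to 1) and 80 to 601 between experiments (septins 0 to 1). Over these SEPT7 with DHT ranged from -0.065 to 0.023 and changed sign without the second lane (0.02) and without the 30-day vehicle (0.01) or DHT (0.02) library, with no call. Of 82 septin results with an unadjusted p above 0.05, 87 of 1008 alternatives changed sign. Replicate numbers did not pair the samples: same-numbered libraries correlated at 0.011 to 0.028 in VCaP and at -0.183 to 0.064 in the GSK2879552 table. With the number as a replicate block, 908 and 903 genes were called for doxycycline with DMSO and with GSK2879552, and 161 for GSK2879552 with doxycycline; no septin call changed. The cause of these changes was not tested. Depth was lowest in VCaP, where SEPT4 could not be tested.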
